A study of Mus musculus with 13 samples.

Results

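The glucocorticoid receptor (GR, encoded by *Nr3c1*) depends on a cytosolic chaperone machine, and 10 genes of that machine were followed in fetal female germ cells with and without GR. They were *Hsp90aa1* and *Hsp90ab1*, which encode the alpha and beta forms of HSP90, *Hspa8* and *Hspa4* of the HSP70 system, and the cochaperone genes *Fkbp4*, *Stip1*, *Ptges3*, *Dnaja1*, *Bag1* and *Cdc37*. The genes were picked by name, and each matched 1 row of a count table of 55335 genes by its GENCODE M21 symbol. All 10 passed the filter on low counts, which left 13086 genes for testing.

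Germ cells were sorted by FACS for the *Pou5f1*-GFP transgene (also called *Oct4*-GFP) from the ovaries of individual female embryos at E17.5, and 1 library of 3' Tag-Seq, which places reads near the 3' end of polyadenylated transcripts, was made per embryo. WT (n = 3) and KO (n = 3) embryos came from a cross of mice heterozygous for a constitutive *Nr3c1* null allele that lacks exon 3, so KO germ cells developed in an embryo without GR in any tissue. The flox (n = 3) and cKO (n = 4) embryos came from a cross of mice homozygous for a floxed exon 3, in which the sires also carried *Pou5f1*-CreERT2. In the cKO embryos this Cre, active in germ cells after tamoxifen, was used to remove exon 3, and how completely it did so was not measured here. The paper describes the flox controls as Cre-negative. The cKO and flox embryos therefore differ in the *Pou5f1*-CreERT2 allele as well as in GR, and these cannot be told apart. All dams of the conditional cross, those of the flox controls included, received 125 μg / g tamoxifen at E10.5. All embryos of both crosses carried the GFP transgene, and the litters of the embryos are not given in the labels. Levels are given as CPM, the count scaled by the total of its library and a TMM factor.

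HSP90 is an ATP-driven dimer that holds client proteins in a state ready for ligand, and steroid hormone receptors are its classic clients. In the textbook cycle HSP70 and its J-domain partner DNAJA1 first bind the receptor, the adaptor STIP1 (also called HOP) passes it from HSP70 to HSP90, and p23, the product of *Ptges3*, closes the mature complex, in which the immunophilins FKBP4 and FKBP5 compete for the same site on HSP90. BAG1 and HSPA4 exchange the nucleotide of HSP70, and CDC37 brings mainly kinases to HSP90. HSP90 alpha is also known for its role in male germ cells, which need it to complete meiosis.

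Many genes of this machine are targets of heat shock factors, which bind inverted repeats of the letters GAA. Promoter windows of RefSeq (GRCm38.p6, 250 bases before to 50 bases after the start) were held for 7 of the 10 genes. *Hsp90aa1*, *Hsp90ab1* and *Hspa8* had no window in that table. A pair of inverted units, spelled GAANNTTC or TTCNNGAA and the same on both strands, was found for 3 of these 7 genes, *Dnaja1*, *Fkbp4* and *Cdc37*. The 7 genes had 9 windows together. By windows rather than genes, the pair was in 15.1% of all 32851. The stretches around these matches are shown because they are the parts of the promoters that resemble the best known control element of chaperone genes. Capitals mark the matched pair, and each is written 5′ to 3′ on the strand of the gene.
*Dnaja1*, chr4:40722328-40722367, plus strand: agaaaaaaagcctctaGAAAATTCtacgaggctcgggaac
*Fkbp4*, chr6:128438784-128438823, minus strand: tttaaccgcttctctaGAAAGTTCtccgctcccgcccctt
*Cdc37*, chr9:21150081-21150120, minus strand: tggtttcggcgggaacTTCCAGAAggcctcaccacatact

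Counted from the RefSeq start of each window, the pair began 124 bases upstream for *Dnaja1*, 151 bases for *Fkbp4* and 170 bases for *Cdc37*. *Dnaja1* has several RefSeq starts, and the one used by this window lies inside the GENCODE interval of the gene given below, as does the stretch shown. The run of 3 units, GAANNTTCNNGAA or TTCNNGAANNTTC, which contains the pair, was in none of the members' windows and in 0.603% of all windows. The glucocorticoid response element, searched as GNACANNNTGTNC on both strands, was also in none of the members' windows and in 0.475% of all windows. A match gives only the letters in these windows.

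The deleted gene was examined first. *Nr3c1* had 46.0, 29.2 and 58.7 CPM in the 3 WT embryos and 34.2, 26.3 and 73.4 CPM in the 3 KO embryos. It had 46.5, 46.7 and 104 CPM in the flox embryos and 59.2, 48.4, 30.1 and 72.8 CPM in the cKO embryos. The ranges overlapped in both models. Reads of a 3' library are expected to fall outside exon 3, so these values do not check the deletion. The paper reported loss of GR in KO embryos by staining, blot and qRT-PCR. Its single-cell data from an earlier stage, also a 3' method, showed depleted *Nr3c1* transcript in KO ovary cells. Why the values here did not differ was not tested.

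Libraries held between 2048706 and 3674989 reads on genes. Of 10 markers of fetal oocytes, 9 had counts, while *Sycp3* was at 0. The 9 summed to between 10080 and 16360 CPM (here without the TMM factor) in every library. The paper stained SYCP3 protein in spreads of fetal oocyte nuclei from an earlier stage, and it lists qRT-PCR primers for *Sycp3*. The 0 is therefore not read as absence of the transcript. Its cause was not tested. Of 14 markers of ovarian somatic cells, 13 had counts, with *Tcf21* at 0, and their sum was 111 to 179 CPM in WT, 85.0 to 125 in KO, 87.6 to 196 in flox and 131 to 206 in cKO. Of 8 erythroid markers, 5 had counts, with *Alas2*, *Hba-x* and *Hbb-y* at 0, and their sum was 86.2 to 238 CPM in WT, 0 to 156 in KO, 284 to 1263 in flox and 78.4 to 199 in cKO. The highest erythroid value was that of flox replicate 1. The 7 macrophage and endothelial markers all had counts and summed to between 10.6 and 89.1 CPM.

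Both HSP90 genes were among the most abundant transcripts of these germ cells and varied little between embryos. *Hsp90aa1* averaged 7096 ± 854 CPM (SD, n = 13) and *Hsp90ab1* averaged 4787 ± 674 CPM (SD, n = 13). Among the genes tested, *Hsp90aa1* was at the 99.97th percentile of mean CPM. The next genes were far lower, with 591 CPM for *Hspa4*, 554 CPM for *Dnaja1* and 511 CPM for *Fkbp4*. *Ptges3* averaged 207 CPM, *Stip1* 140 CPM, *Hspa8* 86.2 CPM, *Cdc37* 66.3 CPM and *Bag1* 58.3 CPM.

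A 3' tag is read about once per transcript whatever its length, so CPM in these libraries is not expected to grow with length, and values per length, given here as the second scale, are lower for long transcripts. Per kilobase of the main coding transcript the level of *Hsp90aa1* was 2163 CPM and that of *Hsp90ab1* 1900 CPM, followed by *Fkbp4* at 231 CPM and *Hspa4* at 128 CPM. The level of *Hspa8*, the constitutive cytosolic HSP70, was 36.0 CPM per kilobase. *Cdc37*, whose annotated main transcript is 7851 bases long, had 8.44 CPM per kilobase, although *Bag1* was below it in CPM. Annotated copies, described below, share the 3' end of *Hspa8*. If reads that match several places were left out of the counts, both levels of *Hspa8* are too low, which was not tested. Fewer cells of a type and less RNA per cell cannot be told apart in such bulk libraries.

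**Figure D1:**
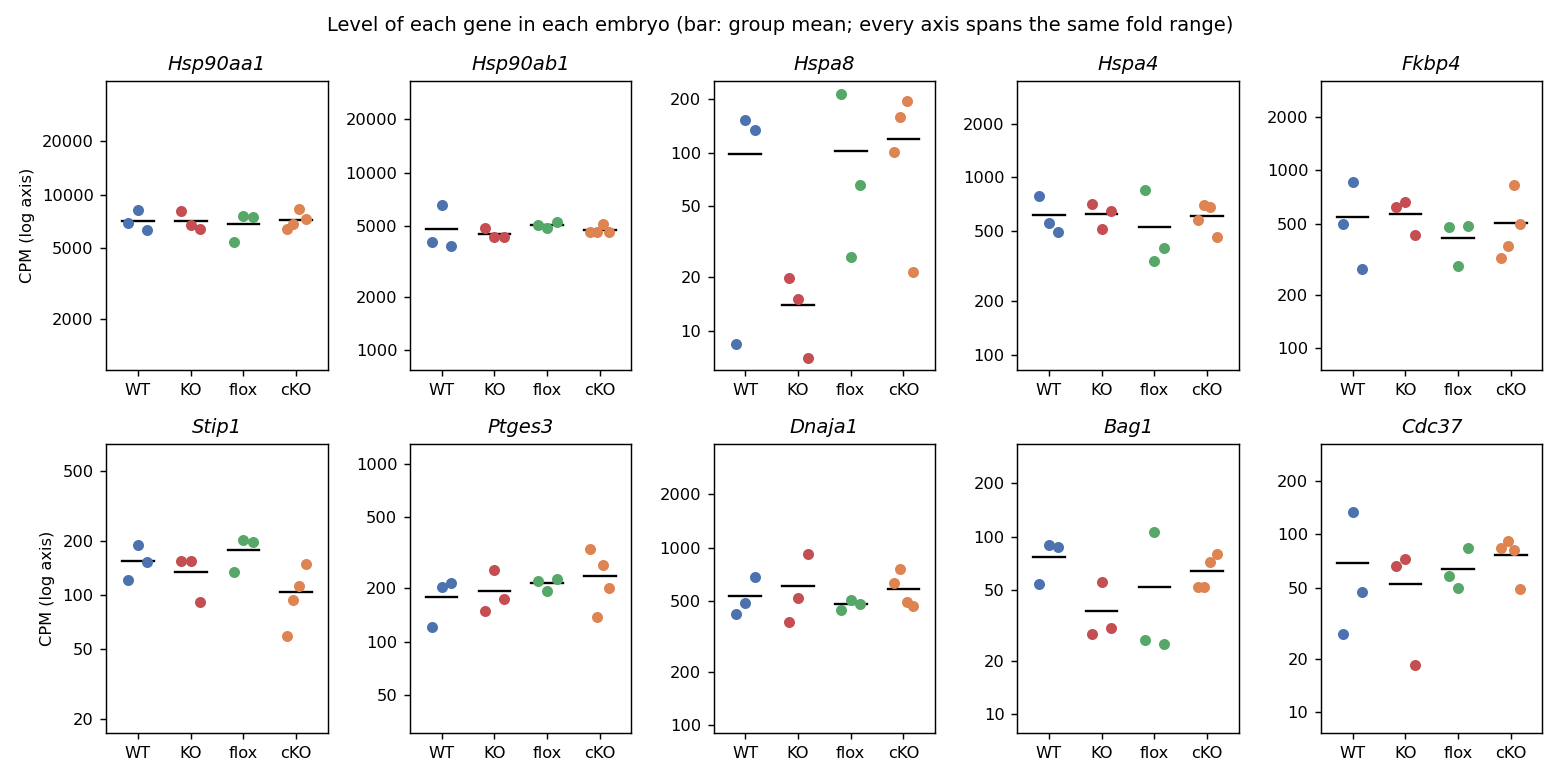
Each panel shows 1 gene, with the level in each embryo in CPM on a log axis (points) and the group mean (bar) for WT, KO, flox and cKO; every axis spans the same fold range. *Hsp90aa1* stays between 5415 and 8319 CPM in all 13 embryos, while *Hspa8* runs from 7.04 to 215 CPM, with all 3 KO embryos at 19.8 CPM or lower.

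*Hsp90aa1* (ENSMUSG00000021270.13) lies on the minus strand of chromosome 12 of mm10, from 110690605 to 110702728. It had 6939, 8244 and 6302 CPM in WT and 8099, 6759 and 6456 CPM in KO embryos. In the conditional cross it had 5415, 7595 and 7482 CPM in flox and 6432, 6892, 8319 and 7308 CPM in cKO embryos. The KO range lay within the WT range, and the cKO range overlapped the flox range. The log2 fold change was -0.01 (SE 0.22, 95% interval -0.47 to 0.44) in KO against WT and 0.08 (SE 0.21, 95% interval -0.34 to 0.51) in cKO against flox. The sign of the KO value turned with the scaling or test used, to 0.02 at most in limma's voom. The pseudogene *Gm5844*, 98.0% identical over the last 300 bases, had 2 to 64 reads per embryo, and *Hsp90aa1* had 12813 to 23175. A closer copy, *Gm12346*, 99.7% identical over these bases, had 0 reads in every embryo.

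*Hsp90ab1* (ENSMUSG00000023944.14), on the minus strand of chromosome 17 from 45567775 to 45573271, had 4084, 6567 and 3857 CPM in WT and 4873, 4322 and 4364 CPM in KO embryos. It had 5048, 4870 and 5291 CPM in flox and 4613, 4610, 5115 and 4622 CPM in cKO embryos. WT replicate 2 stood above the other 12 embryos, and the remaining values fell within a narrow band. It differed by a log2 fold change of -0.10 (SE 0.23, 95% interval -0.57 to 0.37) in KO against WT and -0.10 (SE 0.21, 95% interval -0.54 to 0.34) in cKO against flox. Without WT replicate 2 the KO value was 0.19.

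The balance of the HSP90 forms is free of the scaling between libraries. *Hsp90aa1* supplied 63.0%, 55.7% and 62.0% of the reads of the *Hsp90aa1* and *Hsp90ab1* pair in WT embryos, and 62.4%, 61.0% and 59.7% in KO embryos. Its share was 51.8%, 60.9% and 58.6% in flox embryos and 58.2%, 59.9%, 61.9% and 61.3% in cKO embryos. The alpha form held the larger share in all 13 embryos, and flox replicate 1, the library with the most erythroid reads, had the lowest share. The mean share was 61.0% ± 1.38 (SD, n = 3) in KO and 60.2% ± 3.97 (SD, n = 3) in WT (exact permutation test, p = 0.9, two-sided, where 3 against 3 embryos cannot go below 0.1). It was 60.3% ± 1.63 (SD, n = 4) in cKO and 57.1% ± 4.77 (SD, n = 3) in flox (two-sided exact permutation test, p = 0.257). The difference of 3.25 points in the conditional cross was 0.581 points without flox replicate 1. The part of the erythroid reads in this difference was not tested. Between the crosses the means were 58.9% ± 3.45 (SD, n = 7) in the conditional and 60.6% ± 2.70 (SD, n = 6) in the constitutive cross (two-sided exact permutation test, p = 0.386).

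**Figure D2:**
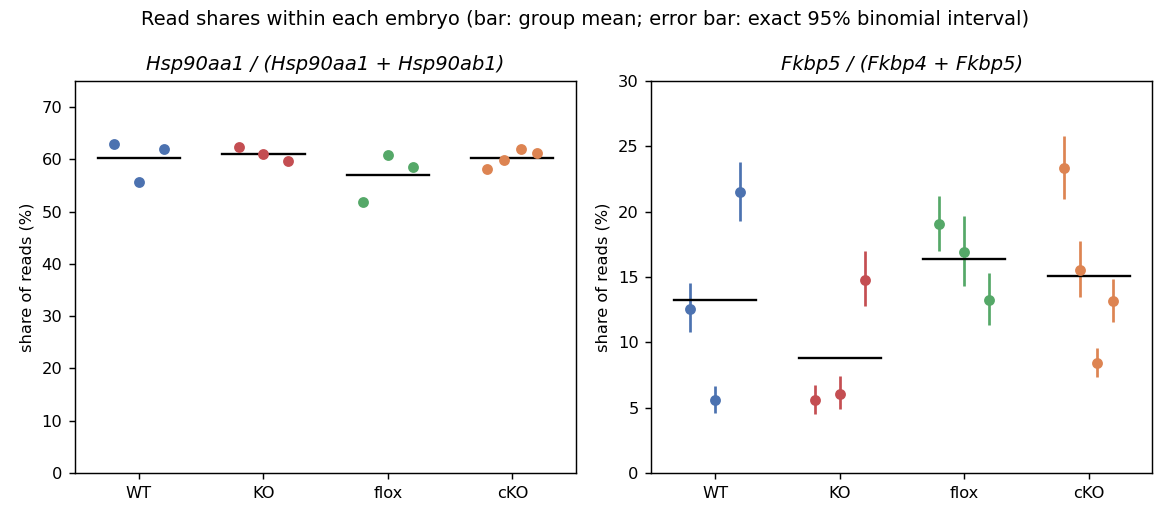
The share of *Hsp90aa1* in the reads of both HSP90 genes (left) and of *Fkbp5* in the reads of *Fkbp4* and *Fkbp5* (right), in percent for each embryo (points) with exact 95% binomial intervals, which cover counting error only, and group means (bars). The HSP90 shares lie between 51.8% and 63.0%, and the *Fkbp5* shares between 5.55% and 23.3%, with overlapping groups in both panels.

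*Hspa8* varied most of the 10 genes. It lies on the plus strand of chromosome 9 from 40800984 to 40810087 (ENSMUSG00000015656.17) and encodes the constitutive cytosolic HSP70. It had 8.41, 153 and 135 CPM in WT and 19.8, 15.1 and 7.04 CPM in KO embryos. It had 215, 25.8 and 65.5 CPM in flox and 102, 159, 194 and 21.4 CPM in cKO embryos. All 3 KO embryos were low, but so was WT replicate 1, which lay below KO replicates 1 and 2, so the WT and KO ranges overlapped. The KO embryos also lay below every embryo of the conditional cross, from which they differ in alleles, tamoxifen and litter. The margin was narrow, with 19.8 CPM in KO replicate 1 and 21.4 CPM in cKO replicate 4. It was lost with the annotated copies added, as described below. KO replicate 3 then had 81.8 CPM, flox replicate 2 had 81.3 and flox replicate 3 had 67.4 CPM. The summed somatic markers ran from 85.0 to 125 CPM in KO and from 111 to 179 CPM in WT embryos. Their part in the low KO values of *Hspa8* was not tested. The highest embryo was 30.6 times the lowest. The fitted biological coefficient of variation of *Hspa8* was 0.638, or 1.6 times the trend of genes of like abundance, against 0.833 to 1.10 times for the other 9 genes.

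The log2 fold change of *Hspa8* was -2.81 (SE 0.83, 95% interval -4.53 to -1.10) in KO against WT, with an unadjusted p of 0.00246 and a Benjamini-Hochberg adjusted p of 0.847 in edgeR's quasi-likelihood F test. Group means of log2 CPM differed by -2.08 (two-sided exact permutation test, p = 0.3). Without a filter on low counts, with 22038 genes tested, the value was -2.78 and its adjusted p from the same edgeR test was 5.69e-05, so that *Hspa8* was called only in the fit that kept rare transcripts. The adjusted p was 0.418 in DESeq2 and 0.886 in limma's voom. The cKO and flox embryos differed by a log2 fold change of 0.22 (SE 0.71, 95% interval -1.25 to 1.69), and 1.39 without flox replicate 1. The difference between the models was 3.03 (SE 1.09, 95% interval 0.78 to 5.29), with an unadjusted p of 0.0104 and an adjusted p of 1.00 in edgeR.

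Reads of *Hspa8* could not be counted free of its copies. Over the last 300 bases of its coding transcripts, 8 other annotated genes had at least 95% identity over at least 80 bases, and 4 of them had counts. These genes were looked at after the spread of *Hspa8* was seen. *Gm15459*, a processed pseudogene on the minus strand of chromosome 5 from 5781615 to 5783555, was identical to the 3' end of *Hspa8* over 217 aligned bases. It had 35, 0 and 31 reads in WT, 44, 37 and 170 in KO, 1, 125 and 4 in flox and 56, 0, 0 and 172 in cKO embryos. The embryos with the fewest *Hspa8* reads tended to have the most *Gm15459* reads. *Hspa8* supplied 35.2%, 100% and 94.1% of the reads of the pair in WT, 54.2%, 45.6% and 8.60% in KO, 99.8%, 31.7% and 97.1% in flox, and 84.0%, 100%, 100% and 26.5% in cKO embryos. The 3 KO embryos, WT replicate 1, flox replicate 2 and cKO replicate 4 were the 6 embryos with a share of 54.2% or less.

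Over the 13 embryos, log2 CPM of *Hspa8* and *Gm15459* had a Pearson r of -0.81 (permutation test, p = 0.00164) and a Spearman rho of -0.77 (permutation test, p = 0.00288). The r was -0.81 without the 2 embryos farthest from the median of *Hspa8*, -0.82 within the 6 embryos of the constitutive cross and -0.89 within the 7 of the conditional cross. This relation was tested on the data in which it was noticed, and it was the only pair of this kind examined. With the counts of its copies in the table added, the level was 24.8, 154 and 144 CPM in WT and 36.5, 33.1 and 81.8 CPM in KO embryos. It was 216, 81.3 and 67.4 CPM in flox and 121, 159, 194 and 81.4 CPM in cKO embryos. The highest embryo was then 8.72 times the lowest, and the log2 fold change in KO against WT was -1.09 (SE 0.55, 95% interval -2.23 to 0.04), with an unadjusted p of 0.0589 in edgeR's test. Whether reads of the gene were assigned to its copy was not tested.

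**Figure D3:**
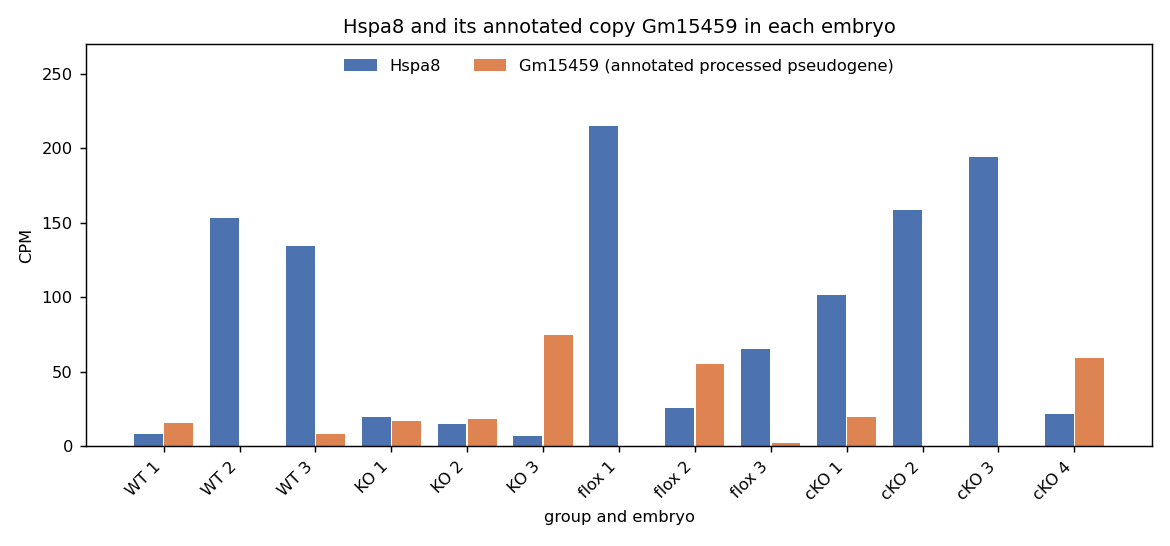
Level in CPM (y axis, linear) of *Hspa8* and of its annotated copy *Gm15459* (bars) in each of the 13 embryos (x axis). *Gm15459* is at 0 in WT replicate 2 and cKO replicates 2 and 3, where *Hspa8* is at 153 CPM or more, and exceeds *Hspa8* in WT replicate 1, KO replicates 2 and 3, flox replicate 2 and cKO replicate 4.

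*Hspa4*, whose product exchanges the nucleotide of HSP70, lies on the minus strand of chromosome 11 from 53259814 to 53300457 (ENSMUSG00000020361.13). It had 781, 551 and 494 CPM in WT and 710, 508 and 642 CPM in KO embryos. It had 848, 335 and 398 CPM in flox and 576, 695, 683 and 460 CPM in cKO embryos. The flox group spanned all other embryos, with flox replicate 1 highest of all 13. KO and WT differed by a log2 fold change of 0.03 (SE 0.32), and cKO and flox by 0.20 (SE 0.30). Without flox replicate 1 the cKO value was 0.72, at an unadjusted p of 0.0228 and an adjusted p of 1.00 in edgeR.

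*Dnaja1*, the J-domain partner of HSP70, lies on the plus strand of chromosome 4 from 40722150 to 40737149 (ENSMUSG00000028410.13). It had 426, 486 and 684 CPM in WT and 381, 522 and 915 CPM in KO embryos. It had 447, 510 and 482 CPM in flox and 629, 760, 493 and 468 CPM in cKO embryos. KO replicate 3 was highest and KO replicate 1 lowest of all 13 embryos, so the KO group spanned the series. Its log2 fold change was 0.19 (SE 0.31) in KO against WT and 0.29 (SE 0.29) in cKO against flox, and the KO value was -0.23 without KO replicate 3. The last 500 bases of the gene are overlapped entirely by other annotated genes, among them *Smu1* on the opposite strand. *Smu1* had 49 to 235 reads, so the division of reads at this end is uncertain. The pseudogene *Gm7816*, 99.7% identical over 300 bases of the 3' end, had 0 to 13 reads. *Gm15542*, 100% identical over 300 bases, and *Gm6335*, 98.7% identical, had 0 reads in every embryo.

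*Bag1*, a nucleotide exchange factor of HSP70, lies on the minus strand of chromosome 4 from 40936398 to 40948294 (ENSMUSG00000028416.12). It had 54.0, 89.4 and 87.8 CPM in WT and 28.1, 55.4 and 30.8 CPM in KO embryos. It had 26.2, 106 and 24.7 CPM in flox and 51.9, 51.9, 72 and 79.4 CPM in cKO embryos. KO embryos were low apart from KO replicate 2, which exceeded the lowest WT embryo by a small margin, and 2 of the 3 flox embryos were as low as the KO embryos. In KO against WT its log2 fold change was -1.02 (SE 0.54, 95% interval -2.13 to 0.10), with an unadjusted p of 0.0715 in edgeR's test, and lay between -1.37 and -0.83 when single libraries were left out. Between cKO and flox it was 0.29 (SE 0.50, 95% interval -0.75 to 1.32), and 1.32 without flox replicate 2.

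*Stip1*, the adaptor that links HSP70 to HSP90, lies on the minus strand of chromosome 19 from 7020702 to 7039967 (ENSMUSG00000024966.9). It had 134, 203 and 198 CPM in flox and 58.5, 93.7, 112 and 149 CPM in cKO embryos. In the constitutive cross it had 122, 190 and 153 CPM in WT and 156, 155 and 91.5 CPM in KO embryos. The cKO embryos were the lowest group, and only cKO replicate 4 reached into the flox range. In cKO against flox its log2 fold change was -0.79 (SE 0.34, 95% interval -1.48 to -0.09), with an unadjusted p of 0.0275 and an adjusted p of 1.00 in edgeR's test. Mean log2 CPM differed by -0.84 (two-sided exact permutation test, p = 0.0857, where 4 against 3 embryos cannot go below 0.0286). The fold change stayed negative, between -1.01 and -0.57, when single libraries were left out. In KO against WT it was -0.21 (SE 0.36, 95% interval -0.95 to 0.54), and the difference between the models was -0.58 (SE 0.49, unadjusted p = 0.252 in edgeR). The summed erythroid markers also separated these groups, with 284 to 1263 CPM in flox and 78.4 to 199 CPM in cKO, and their part in the values of *Stip1* was not tested.

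*Ptges3*, which encodes p23, lies on the plus strand of chromosome 10 from 128058954 to 128077272 (ENSMUSG00000071072.12). It had 120, 202 and 215 CPM in WT and 149, 252 and 173 CPM in KO embryos. It had 218, 192 and 226 CPM in flox and 330, 137, 270 and 201 CPM in cKO embryos. The cKO group enclosed the flox group, and the WT and KO groups overlapped over most of their ranges. The log2 fold changes, 0.10 (SE 0.34) in KO against WT and 0.14 (SE 0.32) in cKO against flox, were smaller than their errors.

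*Cdc37*, the kinase cochaperone, lies on the minus strand of chromosome 9 from 21133222 to 21149982 (ENSMUSG00000019471.10). It had 27.4, 133 and 47.0 CPM in WT and 66.1, 72.9 and 18.5 CPM in KO embryos. It had 57.9, 49.8 and 83.4 CPM in flox and 83.5, 91.4, 81.2 and 49.4 CPM in cKO embryos. WT replicate 2 was highest and KO replicate 3 lowest. In KO against WT the log2 fold change was -0.40 (SE 0.55), and 0.50 without WT replicate 2. In cKO against flox it was 0.26 (SE 0.51).

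*Fkbp4*, the immunophilin that links the receptor complex to dynein, lies on the minus strand of chromosome 6 from 128429735 to 128438677 (ENSMUSG00000030357.10). It had 501, 862 and 278 CPM in WT and 621, 665 and 431 CPM in KO embryos. It had 481, 289 and 487 CPM in flox and 322, 376, 832 and 498 CPM in cKO embryos. The WT group alone spanned the whole range of the series. KO and WT differed by a log2 fold change of 0.07 (SE 0.37), and cKO and flox by 0.28 (SE 0.35).

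*Fkbp5*, the competing immunophilin and a well known glucocorticoid-induced gene in many tissues, was no member of the set but is read here against *Fkbp4*. It had 72.1, 50.7 and 76.1 CPM in WT and 36.5, 42.8 and 74.8 CPM in KO embryos. It had 113, 58.7 and 74.2 CPM in flox and 98.0, 69.1, 76.4 and 75.2 CPM in cKO embryos. Its log2 fold change was -0.37 (SE 0.42, 95% interval -1.24 to 0.50) in KO against WT and -0.04 (SE 0.39, 95% interval -0.85 to 0.77) in cKO against flox. Both controls overlapped their deletion groups.

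The share of *Fkbp5* in the reads of *Fkbp4* and *Fkbp5* was 12.6%, 5.55% and 21.5% in WT and 5.55%, 6.05% and 14.8% in KO embryos. It was 19.0%, 16.9% and 13.2% in flox and 23.3%, 15.5%, 8.41% and 13.1% in cKO embryos. *Fkbp4* held the larger share in every embryo. The mean share was 8.79% ± 5.19 (SD, n = 3) in KO and 13.2% ± 7.98 (SD, n = 3) in WT (two-sided exact permutation test, p = 0.6), and the difference of -4.41 points was -0.272 points without WT replicate 3 and -8.23 points without WT replicate 2. It was 15.1% ± 6.23 (SD, n = 4) in cKO and 16.4% ± 2.93 (SD, n = 3) in flox (two-sided exact permutation test, p = 0.714). Between the crosses the means were 15.6% ± 4.77 (SD, n = 7) in the conditional and 11.0% ± 6.49 (SD, n = 6) in the constitutive cross (two-sided exact permutation test, p = 0.161).

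Across the 10 genes, none passed an adjusted p of 0.05 in KO against WT in edgeR's quasi-likelihood test, where 0.00% of all tested genes were called. At an unadjusted p under 0.05 there was 1 member, *Hspa8*, against 5.82% of all tested genes. In cKO against flox again 0 of 10 were called, beside 0.00% of all tested genes, and 1 member, *Stip1*, had an unadjusted p under 0.05, against 3.19%. DESeq2 and limma's voom called 0 members in either comparison. No member had KO embryos all above or all below the WT embryos, or cKO embryos all above or all below the flox embryos, which held for 9.46% and 4.97% of all tested genes. The median log2 fold change of the 10 genes was -0.05 in KO against WT, where 4 values were positive and 6 negative, and the median of all tested genes was -0.03. In cKO against flox the median was 0.21, with 8 positive and 2 negative values, and that of all tested genes was -0.01.

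The 95% interval stayed between -1 and 1 on the log2 scale for 7 members in KO against WT, compared with 11.6% of all tested genes. In cKO against flox this held for 5 members, compared with 14.9% of all tested genes. The 7 members are those with the highest mean levels, from *Hsp90aa1* down to *Stip1*. *Hspa8*, *Bag1* and *Cdc37* had the lowest levels and the widest intervals, which in KO against WT reached -1.53 to 0.74 for *Cdc37*, so smaller changes of that gene were not detectable.

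**Figure D4:**
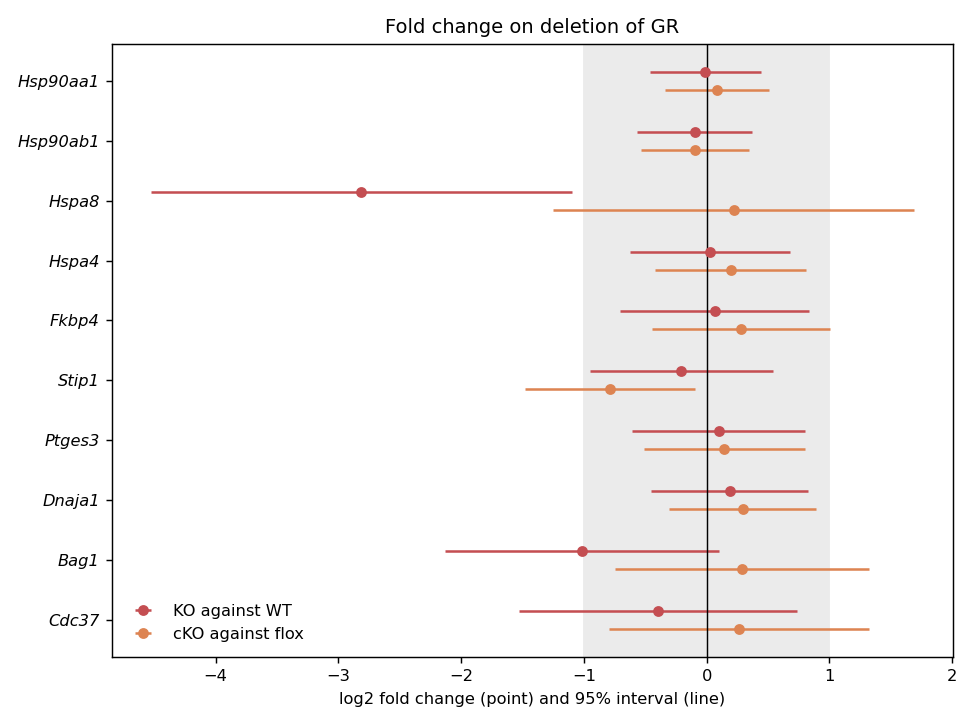
Log2 fold change (points, x axis) with its 95% interval (lines) of each gene (y axis) in KO against WT and in cKO against flox, with the band from -1 to 1 in grey. The intervals of both HSP90 genes stay within 0.57 of 0 in both models, and the only intervals that leave out 0 are that of *Hspa8* in KO against WT (-4.53 to -1.10) and that of *Stip1* in cKO against flox (-1.48 to -0.09).

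With both models averaged, GR-deficient against GR-intact embryos, 0 of 10 members were called in edgeR, where 0.00% of tested genes were called, and DESeq2 and limma's voom also called 0 members. *Hspa8* was again the only member with an unadjusted p under 0.05, at a log2 fold change of -1.30 (SE 0.53, unadjusted p = 0.0229 in edgeR), against 5.34% of all tested genes. With the copies of *Hspa8* added the value was -0.45 (SE 0.37, unadjusted p = 0.236 in edgeR), and without flox replicate 1 it was -0.71 (unadjusted p = 0.175 in edgeR). *Stip1* stood at -0.50 (SE 0.25, 95% interval -1.01 to 0.01). Between the conditional and the constitutive cross 0.00764% of the tested genes were called in edgeR, none of them a member, and 5.59% had an unadjusted p under 0.05. The 1 member among the latter was *Hspa8*, with a log2 fold change of 1.57 (SE 0.55, unadjusted p = 0.00851, adjusted p = 0.777 in edgeR) and an adjusted p of 0.000995 without a filter on low counts. With the copies added it was 0.82 (SE 0.38), and without flox replicate 1 it was 1.00 (unadjusted p = 0.0629 in edgeR). The crosses differ in alleles, tamoxifen and litters, which cannot be told apart.

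Members did not vary together strongly enough across embryos to pass a correction. Among the 45 pairs of members, Pearson's r of log2 CPM over the 13 embryos ran from -0.53 to 0.69 with a median of 0.06, and it was positive for 27 pairs and negative for 18. No pair passed an adjusted p of 0.05 (permutation test with 100000 resamples, lowest adjusted p = 0.260 for Pearson's r and 0.533 for Spearman's rho), and 3 pairs had an unadjusted p under 0.05 for Pearson's r. The highest r was that of *Hspa8* and *Cdc37* at 0.69 (rho 0.57, permutation p = 0.00579), which was 0.38 without the 2 embryos farthest from the median of *Hspa8*. *Hsp90ab1* and *Cdc37* had an r of 0.65 (rho 0.57, permutation p = 0.018) over all embryos and 0.57 without the 2 farthest, but 0.70 within the constitutive and 0.10 within the conditional cross. The r of *Hsp90ab1* and *Fkbp4* was 0.56 (rho 0.44, permutation p = 0.0413), and 0.11 without WT replicates 2 and 3.

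The forms of HSP90 had an r of 0.50 (permutation p = 0.0821) and a rho of 0.60 (permutation p = 0.0321) across the 13 embryos, 0.79 without flox replicate 1 and cKO replicate 3, 0.85 within the constitutive cross and 0.17 within the conditional cross. All points share the scaling to library size. The sign of r was the same in both crosses for 25 of the 45 pairs. The lowest r was that of *Stip1* and *Dnaja1* at -0.53 (permutation p = 0.0655), with a rho of -0.40 (permutation p = 0.183).

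**Figure D5:**
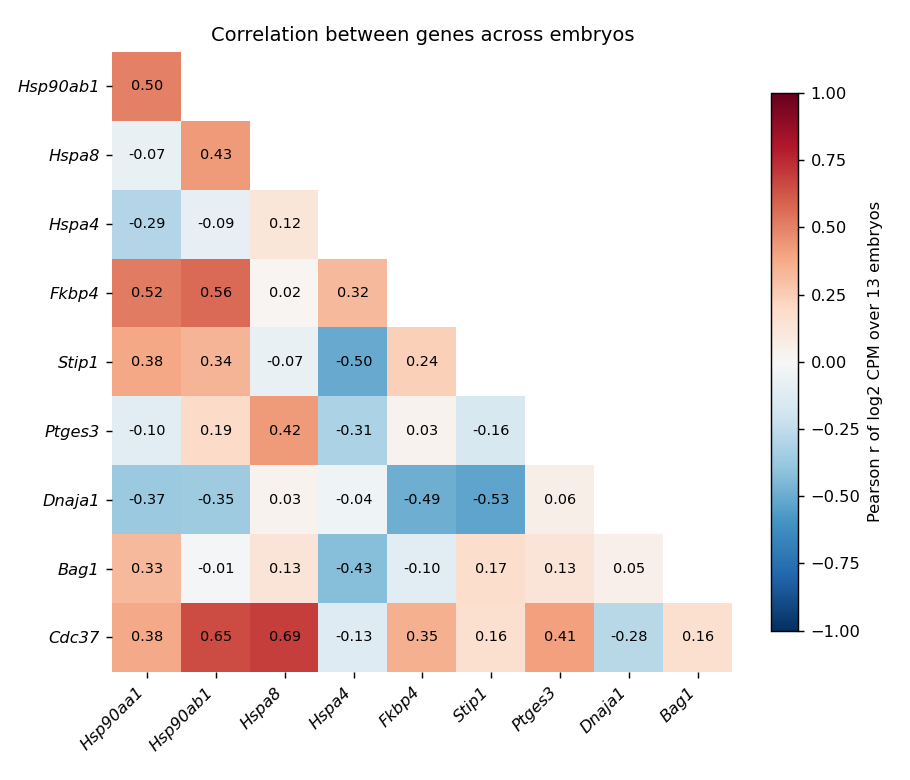
Pearson's r of log2 CPM over the 13 embryos for each of the 45 pairs of genes, as a number and a colour (red positive, blue negative). Values run from -0.53 (*Stip1* and *Dnaja1*) to 0.69 (*Hspa8* and *Cdc37*), with no common sign across the set.

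Among 7175 other tested genes that averaged 50 counts or more, those most like *Hsp90aa1* across the 13 embryos were *Rnf180*, a ubiquitin ligase gene (r = 0.89), *Eif3a*, a subunit of a translation initiation factor (r = 0.88), and *Kctd2* (r = 0.84). Within the constitutive and the conditional cross, *Rnf180* had an r of 0.92 and 0.89. Among the genes most like *Hsp90ab1* were *Ciapin1*, of iron-sulfur cluster assembly (r = 0.89), and *Rpa2*, of the single-strand DNA binding complex RPA (r = 0.89). Within the constitutive and the conditional cross, *Rpa2* had an r of 0.97 and 0.66. These genes are the highest of many and are given as a description.

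The rest of the chaperone network was read through 4 further lists. Of 18 other HSP90 cochaperone genes, 15 were tested, *Unc45a* was not analysed here, and *Aarsd1* was at 0. None was called or had an unadjusted p under 0.05 in either model, with 7 higher and 8 lower in KO (median log2 fold change -0.22) and 11 higher and 4 lower in cKO (median 0.17). Of 19 other genes of the HSP70 system, 17 were tested and none was called. In KO against WT 9 were higher and 8 lower, none with an unadjusted p under 0.05, and in cKO against flox 7 were higher and 10 lower (median -0.17).

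Within the HSP70 list, *Dnajb1*, a J-domain gene induced by heat shock, had 232, 154 and 240 CPM in flox and 122, 75.4, 144 and 160 CPM in cKO embryos. Its log2 fold change was -0.73 (SE 0.32, unadjusted p = 0.0327, adjusted p = 1.00 in edgeR), and only cKO replicate 4 exceeded the lowest flox embryo. As for *Stip1*, the erythroid markers separated these groups, and their part in the values of *Dnajb1* and *Hspa14* was not tested. *Hspa14*, an atypical HSP70 gene of the ribosome-associated complex, had 18.6, 42.7 and 44.6 CPM in flox and 141, 35.1, 56.6 and 116 CPM in cKO embryos. Its log2 fold change was 1.31 (SE 0.51, unadjusted p = 0.0166, adjusted p = 1.00 in edgeR), and cKO replicate 2 lay inside the flox range. GENCODE marks *Hspa14* as a locus that overlaps another, so its counts are uncertain. With both models averaged its log2 fold change was 0.99 (SE 0.36, unadjusted p = 0.0118 in edgeR).

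All 5 genes of the organelle forms of HSP90 and HSP70 were tested, and none was called or had an unadjusted p under 0.05 in either model (median log2 fold change 0.09 in KO and 0.17 in cKO). Of 8 heat shock factor, small heat shock protein and chaperonin genes, 7 were tested with the same outcome in both models (median 0.34 in KO and 0.07 in cKO). From this list *Hspd1*, the mitochondrial chaperonin HSP60, had 296 to 447 CPM in flox, 388 to 476 CPM in cKO, 445 to 565 CPM in WT and 540 to 707 CPM in KO embryos. Its log2 fold change between the crosses was -0.53 (SE 0.18, unadjusted p = 0.00656, adjusted p = 0.777 in edgeR).

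Immediate early genes, which rise when tissue is handled or dissociated, were read beside the chaperones, since the ovaries were digested with trypsin before sorting. Of 8 genes, 6 were tested, *Ier2* was not analysed here, and none was called. *Egr1*, a transcription factor gene of this class, had 11.1, 4.30 and 17.7 CPM in WT and 55.9, 25.8 and 36.5 CPM in KO embryos. These groups did not overlap, as for 9.46% of all tested genes. It had 42.26, 39.10 and 26.19 CPM in flox and 32.55, 8.980, 13.95 and 53.15 CPM in cKO embryos. The GR-intact flox embryos thus lay within the KO range of *Egr1*. Its log2 fold change was 1.82 (SE 0.77, unadjusted p = 0.0262, adjusted p = 0.847 in edgeR) in KO against WT, and the difference between the models was -2.22 (SE 1.03, unadjusted p = 0.0403 in edgeR). The inducible *Hspa1a* and *Hspa1b*, named after their values were seen, had 0 to 97 and 0 to 141 reads per embryo, and as near-identical copies they may share reads. Over the list 4 genes had higher and 2 lower values in KO than in WT. The median log2 fold change was 0.71, against -0.03 for all tested genes. The summed level, without the TMM factor, was 172, 52.4 and 85.8 CPM in KO embryos. KO replicates 1 and 3 thus lay above the WT range of 48.4 to 62.2 CPM, and KO replicate 2 lay within it. The part of handling in these values was not tested.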

How the data were processed

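Germ cells from the ovary pairs of 13 E17.5 embryos were profiled by 3' Tag-Seq (QuantSeq FWD). The authors aligned reads to mm10 with STAR 2.6.0 and counted them per gene with featureCounts 1.6.3, and they deposited these counts without normalization. The gene intervals in the table include introns. The strand setting of the counting and its treatment of reads that match several places were not given in the sources used here. The authors' deposited tables of fold changes and p-values for both comparisons were not used. Groups were taken from the sample titles.

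Counts were tested with edgeR 4.0.16 (R 4.3.3) by the quasi-likelihood F test, with TMM factors, filterByExpr (minimum count 10, minimum total 15), a mean per group over all 13 libraries and Benjamini-Hochberg adjustment over 13086 genes. The study does not name its filter or the libraries fitted. Log2 CPM used a prior count of 2. Libraries of 2048706 to 3674989 reads make 1 read worth 0.272 to 0.486 CPM. Binomial intervals of shares cover counting error at most and leave out the spread between embryos. No molecular identifiers are described, so reads copied from the same molecule could make these intervals too narrow. Copies were found with BLAST 2.17.0. Single values were tested by exact permutation with NumPy 2.4.6. The fit was tested on simulated data. RLE and upper-quartile scaling, DESeq2 1.42.0, limma 3.58.1 voom, other filters, a replicate block, a fit of 2 groups and each library left out were tried, and adding the copies of *Hspa8* was chosen after the data were seen. The members and lists were chosen with earlier results of these data known. Named beyond the members were *Nr3c1*, *Fkbp5*, list genes with an unadjusted p under 0.05 (at most 3 per list and comparison) and the 3 genes most like each HSP90 gene, of which 1 is not reported here.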

Additional observations from a re-analysis of the deposited data

Results flagged for a closer look

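*Hsp90ab1* in cKO replicate 3 stood apart from the other 3 cKO embryos, at 5115 CPM beside 4610, 4613 and 4622 CPM. Its gap to the nearest embryo was 0.976 of the range of the group, above the critical value of 0.829. Chance flags about 1 in 20 groups, and 12 values were examined in this way. The fold change of *Hspa8* differed between the models by 3.03 on the log2 scale in edgeR's test of the difference (unadjusted p = 0.0104, adjusted p = 1.00), and by 1.28 (unadjusted p = 0.0996 in edgeR) with the counts of its annotated copies added.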

How the results depend on the processing

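The 10 members gave 0 calls under every alternative except the fit without a filter on low counts, in which *Hspa8* was called in KO against WT (-2.78), between the crosses (1.56) and in the difference between the models, for which the cause was not tested. Over all genes, DESeq2 called 10 genes in KO against WT, 5 in cKO against flox, 12 in GR-deficient against GR-intact embryos, 33 between the crosses and 4 in the difference between the models. Without a filter these counts were 15, 11, 17, 35 and 8, and with at least 10 counts in every library 1 gene was called in GR-deficient against GR-intact embryos and 0 between the crosses. For *Hsp90aa1* the log2 fold change in KO against WT turned to 0.0021 with RLE scaling, 0.0022 in DESeq2, 0.0195 in limma's voom and 0.0193 without a filter. With single libraries left out, the genes called ranged from 0 to 2 in KO against WT (2 without WT replicate 3), from 0 to 1 in GR-deficient against GR-intact embryos (1 without flox replicate 1) and from 1 to 11 between the crosses (11 without WT replicate 3, 4 without KO replicate 3). Without flox replicate 1 the log2 fold change of *Hspa8* was -0.71 in GR-deficient against GR-intact embryos and 1.00 between the crosses. In KO against WT the ranges of the log2 fold changes that changed sign were -0.10 to 0.11 for *Hsp90aa1*, -0.22 to 0.19 for *Hsp90ab1*, -0.092 to 0.26 for *Hspa4*, -0.24 to 0.56 for *Fkbp4*, -0.34 to 0.016 for *Stip1*, -0.14 to 0.26 for *Ptges3*, -0.23 to 0.44 for *Dnaja1* and -0.76 to 0.50 for *Cdc37*. In cKO against flox they were -0.055 to 0.17 for *Hsp90aa1*, -0.23 to 1.39 for *Hspa8*, -0.041 to 0.72 for *Hspa4*, -0.064 to 0.46 for *Fkbp4*, -0.050 to 0.33 for *Ptges3* and -0.036 to 1.32 for *Bag1*. The HSP90 alpha share in KO minus WT ranged from -1.46 to 2.18 points, the *Fkbp5* share in KO minus WT from -8.23 to -0.272 points, in cKO minus flox from -4.02 to 0.952 points, and that between the crosses from 3.37 to 6.74 points, the last without WT replicate 3 (exact permutation test, p = 0.0303). Counts summed over the libraries of a group moved no share by more than the spread between embryos.

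What the replicate numbers stand for is not given in the labels. They are the numbers of the sample titles. In neither cross do the count columns of replicate 3 carry the same number in the control and the deletion group. Same-numbered libraries had correlations of their deviations between 0.0081 and 0.0749 over 7176 genes, and other pairs between -0.0896 and 0.0482. KO replicate 1 did not correlate best with WT replicate 1. KO replicates 2 and 3 and cKO replicates 1, 2 and 3 each correlated best with the control of the same number. For KO replicate 3 the values were almost equal, at 0.0192 with WT replicate 3 and 0.0187 with WT replicate 1. Whether the numbers mark a shared litter or batch was not tested. With the replicate block, 0 genes were called in KO against WT and in cKO against flox (553 and 357 at an unadjusted p under 0.05), and no member was called in any comparison. *Hspa8*, *Bag1* and *Cdc37* had 16 to 529, 51 to 323 and 42 to 279 reads and the largest errors, and *Hspa8* also had the largest spread between embryos.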
